A study of Homo sapiens with 3 samples.

Results

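The genes described here are 39 known transcriptional targets of the tumour suppressor p53, chosen by gene name, and all probe sets annotated to any of them were taken. Of the 39, 37 had at least 1 probe set named for them, out of 19775 genes on the array, and BTG2 and FDXR are not analysed here. The signals came from 3 untreated cultures of human hepatocellular carcinoma cells. These were the cisplatin-resistant subline MHCC97L/CisR, the doxorubicin-resistant subline MHCC97L/DoxR, and the parental metastatic hepatoma line MHCC97Low from which both were derived. All were grown in DMEM with serum, no drug was given according to the labels, and total RNA of each was hybridised to 1 Affymetrix U133 Plus array. The labels do not say whether a subline is 1 clone, and the dose and length of selection are not given in the sources used here.

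p53 is a transcription factor that is held low by the ubiquitin ligase MDM2 and accumulates after DNA damage. It then switches on genes for cell cycle arrest, apoptosis, DNA repair and metabolic adjustment, and also MDM2 itself, which closes a negative feedback loop. Cisplatin crosslinks DNA and doxorubicin poisons topoisomerase II, so both damage DNA and are known activators of p53. The study set each subline against parental cells to find genes that go with resistance, and the comparison here asks whether the p53 targets differed together or singly.

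Each value below is a MAS5 signal, the summary of a probe set's perfect-match and mismatch probes on a linear scale. Where a gene had several probe sets, the brightest by mean over the 3 arrays stood for it. Signals under a floor of 76.9, the median of all values, were raised to the floor before log2 was taken, so a fold is written "at least" where the lower signal was raised in this way. A difference was called at 2-fold, a log2 difference of 1. With 1 array per line there was no spread between replicates and no test was possible, so every difference is that between single arrays, and precision is limited by their number. In RNA from whole cultures, fewer cells expressing a gene and less RNA per cell cannot be told apart.

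Median signals were similar on the 3 arrays, at 79.2 in cisplatin-resistant, 73.3 in doxorubicin-resistant and 78.5 in parental cells. The epithelial keratin KRT8 was at 26062, 26856 and 23132 in the same order of arrays. Of 11 hepatoma marker genes 6 were above the floor on all arrays and 4 (APOA1, APOA2, EPCAM and GPC3) on none. Compared with parental cells, 5 of its 7 compared markers (AFP, ALB, TF, TTR and SERPINA1) were at least 2-fold lower in cisplatin-resistant cells. In doxorubicin-resistant cells TF was at least 2-fold lower and ALB higher. Of 4 leukocyte, 6 fibroblast and 5 endothelial markers, 3 of each list were never above the floor, PTPRC, VWF and CDH5 among them. Above it on all 3 arrays were the fibroblast genes COL1A1 and LUM and the endothelial genes PECAM1 and KDR. PECAM1 was at 802 in cisplatin-resistant, 827 in doxorubicin-resistant and 1052 in parental cells. In the same order KDR was at 285, 190 and 200, and COL1A1 at 511, 242 and 309. Summed signals of the leukocyte list were 240, 168 and 172, of the fibroblast list 3305, 1528 and 742, and of the endothelial list 1120, 1052 and 1333. The fibroblast marker LUM was at 2632 in cisplatin-resistant, 1167 in doxorubicin-resistant and 258 in parental cells, while COL1A2, COL3A1 and PDGFRB were never above the floor. Whether these marker changes have a part in the p53 target values was not tested.

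As a group, the p53 targets had a median close to that of all genes in both sublines, while single members stood apart in doxorubicin-resistant cells. Of the 37 genes, 35 were above the floor on at least 1 array and entered every comparison, and 34 were above it on all 3. In cisplatin-resistant cells 0 of 35 members differed from parental by 2-fold, where 5.40% of all 12699 genes compared did, 2.82% higher and 2.58% lower. Their median log2 difference was 0.01, against 0.02 over all genes, with 18 members above and 17 below 0. In doxorubicin-resistant cells 5 of 35 members (14.3%) differed from parental by 2-fold, where 5.75% of all 12599 genes did. GDF15 and TP53TG1 were higher (2 members, against 2.99% of all genes), and PLK2, PHLDA3 and DRAM1 were lower (3 members, against 2.75%). The median was 0.05, against 0.00 over all genes, again with 18 members above and 17 below 0. Since both comparisons use the same parental array, their values are given side by side only. The members and the further lists below were chosen with earlier results of these data known. Shares above the background are therefore descriptions and not independent findings.

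The direct comparison of the sublines gave a similar picture. In doxorubicin-resistant cells 4 of 35 members (11.4%) differed by 2-fold from cisplatin-resistant cells, where 6.37% of all 12593 genes did. GDF15, CDKN1A and TP53TG1 were higher (3 members, against 3.05% of all genes) and PLK2 was lower (1 member, against 3.32%). The median was -0.01, as over all genes. The interquartile range of the members' log2 differences was 0.65 in cisplatin-resistant and 0.64 in doxorubicin-resistant cells against parental, compared with 0.50 over all genes in each. It was 0.72 between the sublines, compared with 0.52. The background share depended on brightness. With genes split by mean signal into 3 groups, 2.40% of the brightest differed by 2-fold between doxorubicin-resistant and parental cells, and 1 of the 13 members there did (GDF15). In the middle group the share was 5.17%, and 3 of 17 members did, and in the dimmest it was 9.67%, and 1 of 5 members did (PHLDA3).

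**Figure D1:**
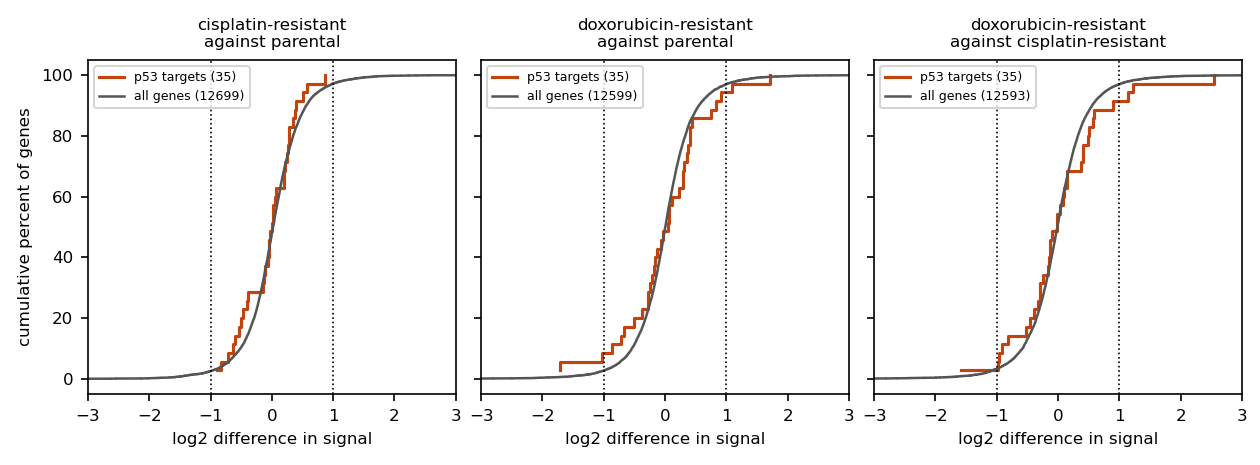
Cumulative percent of genes (y axis) by log2 difference in signal (x axis) for the 35 p53 targets and for all genes compared, in each of 3 comparisons of single arrays; dotted lines mark 2-fold. The curves run close together around 0 in every panel, and the p53 targets reach beyond 2-fold only in the comparisons with the doxorubicin-resistant array.

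A threshold of 1.5-fold was also counted. In cisplatin-resistant cells 1 member was 1.5-fold higher (TNFAIP8) and 5 were lower (GDF15, PHLDA3, STEAP3, TRIAP1 and PPM1D), which is 2.86% and 14.3% of members, against 9.29% and 8.26% of all genes. In doxorubicin-resistant cells 5 members were 1.5-fold higher and 6 lower, 14.3% and 17.1%, against 9.10% and 8.62% of all genes. Between doxorubicin-resistant and cisplatin-resistant cells 4 were 1.5-fold higher and 5 lower, 11.4% and 14.3%, against 9.16% and 9.91% of all genes. Over the 3 arrays, the highest and lowest signal of a member lay within 1.5-fold of each other for 20 of 35 members and within 2-fold for 29. The highest signal was on the cisplatin-resistant array for 12 members, on the doxorubicin-resistant array for 13 and on the parental array for 10.

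**Figure D2:**
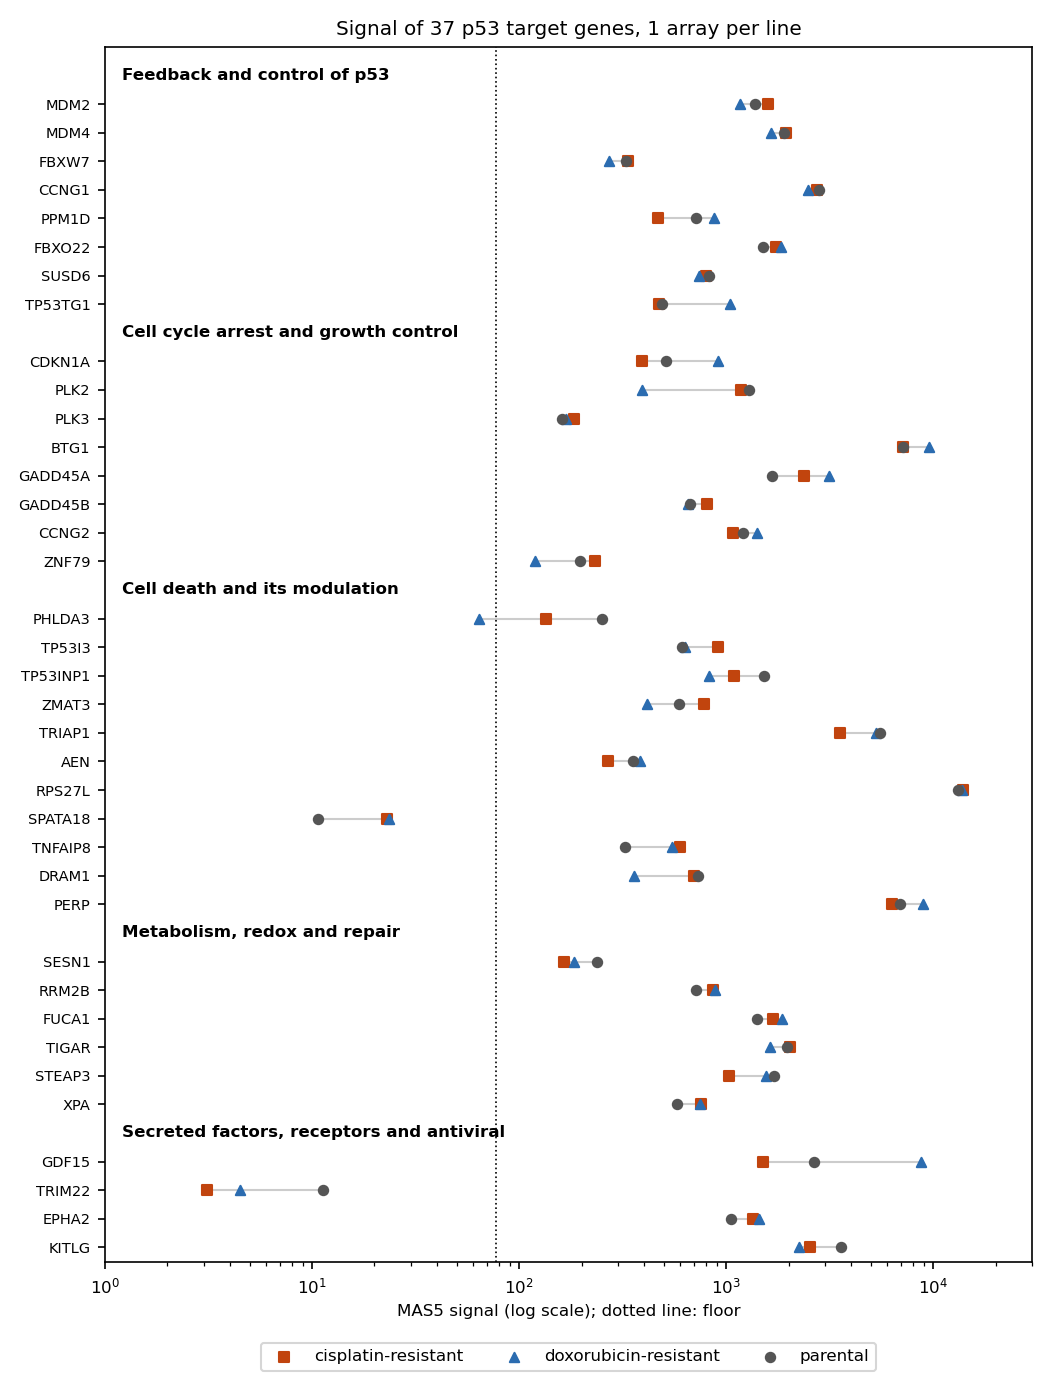
MAS5 signal on a log axis of the 37 p53 targets in the cisplatin-resistant, doxorubicin-resistant and parental lines, 1 array each, grouped by role; the dotted line is the floor of 76.9. GDF15 has the widest span, 5.83-fold from its lowest to its highest array, and SPATA18 and TRIM22 lie under the floor on all arrays.

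p53 binds DNA as a tetramer to a pair of similar decamers, and the promoters of the members were searched for the decamer. Since the members were chosen as known p53 targets, a status that often rests on such sites, the share below is a description and not independent of the choice. Of the members, 33 (BTG2 and FDXR included) had a promoter window in the RefSeq table of build GRCh38.p14, from 250 bases before to 50 bases after a start site. A perfect match to the p53 decamer, a motif that reads the same on both strands, lay in a window of 5 of the 33 (15.2%), compared with 8.06% of all 27305 genes in the table. A pair of perfect decamers with 0 to 13 bases between them was in 0 of the 33 and in 0.0285% of all windows. The known p53 sites of many targets lie further away or deviate from the perfect letters, and a window without a match says nothing about p53. The stretches around the matches are shown here 5′ to 3′ for PLK2, SESN1, RPS27L and AEN, with the decamer in capitals, so that they can be read beside the signals below. FDXR, which also holds a match, has no signal here and is not shown. The last 100 bases before the start of GDF15, the member with the widest span, follow without capitals, since they hold no perfect decamer.
PLK2 (chr5:58460184-58460243, minus strand): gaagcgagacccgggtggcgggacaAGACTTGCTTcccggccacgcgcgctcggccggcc
SESN1 (chr6:109009003-109009062, minus strand): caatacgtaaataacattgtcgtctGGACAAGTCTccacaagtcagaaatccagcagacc
RPS27L (chr15:63157502-63157561, minus strand): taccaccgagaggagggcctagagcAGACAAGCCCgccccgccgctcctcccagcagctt
AEN (chr15:88621281-88621339, plus strand): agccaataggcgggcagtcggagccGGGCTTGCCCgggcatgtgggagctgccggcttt
GDF15 (chr19:18386058-18386157, plus strand): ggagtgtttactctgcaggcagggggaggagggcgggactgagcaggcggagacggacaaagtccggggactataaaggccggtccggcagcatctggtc
Counted from the start site, the decamer begins at -132 in PLK2, -49 in SESN1, -59 in RPS27L and -34 in AEN. The signals of these 4 genes did not share a direction. In doxorubicin-resistant against parental cells their log2 differences were -1.71 for PLK2, -0.38 for SESN1, 0.06 for RPS27L and 0.11 for AEN. In cisplatin-resistant against parental cells they were -0.13 for PLK2, -0.53 for SESN1, 0.07 for RPS27L and -0.40 for AEN.

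Of the 8 genes that feed back on p53 or control it, 0 passed 2-fold in cisplatin-resistant and 1, a long non-coding RNA, in doxorubicin-resistant cells, against 5.40% and 5.75% of all genes, so the counts are close to the background. MDM2, the ubiquitin ligase that degrades p53 and the classic readout of its activity, had a signal of 1596 in cisplatin-resistant, 1167 in doxorubicin-resistant and 1385 in parental cells. The cisplatin-resistant array was highest, and the log2 differences from parental were 0.20 and -0.25. MDM2 had 10 probe sets, and 1 dimmer one differed in size from the rest. That probe set stood at 33.2 in cisplatin-resistant, 55.5 in doxorubicin-resistant and 248 in parental cells, a log2 bound of -1.69 in both sublines. The other 4 with a value above the floor had log2 differences between -0.21 and 0.20 in cisplatin-resistant cells and between -0.41 and 0.23 in doxorubicin-resistant cells. MDM4, the MDM2 relative that masks the p53 activation domain, was at 1936, 1640 and 1902 in the cisplatin-resistant, doxorubicin-resistant and parental arrays. The differences of both inhibitors from parental were thus small in their main probe sets.

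PPM1D, the phosphatase that dampens ATM and p53 signalling, was at 470 in cisplatin-resistant, 873 in doxorubicin-resistant and 714 in parental cells. Its log2 difference between doxorubicin-resistant and cisplatin-resistant cells was 0.89, but its other probe set gave 0.00. The median difference of its neighbouring genes was 0.44 in that comparison. CCNG1 (cyclin G1, a partner of a phosphatase that acts on MDM2), FBXW7 and FBXO22 (substrate receptors of ubiquitin ligases) and SUSD6 had log2 differences from parental between -0.27 and 0.29 in both sublines by their brightest probe sets. The other 2 measured probe sets of FBXW7 were lower in doxorubicin-resistant cells, at -0.61 and -0.67.

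The gene past 2-fold was TP53TG1, a non-coding RNA named as a p53 target gene, with a signal of 474 in cisplatin-resistant, 1046 in doxorubicin-resistant and 492 in parental cells. The doxorubicin-resistant array alone was high, 2.13-fold above parental, and its 3 probe sets all pointed the same way with log2 differences of 0.83 to 2.13. TP53TG1 lies on chromosome 7, 3 compared genes away from ABCB1, the drug efflux pump gene, in a region where neighbours were higher in doxorubicin-resistant cells. Of the 20 nearest compared genes 19 were above parental, 14 of them by 2-fold, and their median log2 difference was 1.46. ABCB1 itself had 3.40 and ABCB4 1.47. With the neighbours' median subtracted, TP53TG1 stood at -0.38 by its representative probe set, which was thus not higher than its surroundings. Of its other probe sets, that at 2.13 lay above the neighbours' median of 1.46 and that at 0.83 below it. In cisplatin-resistant cells the neighbours' median was 0.21 and TP53TG1 had -0.05.

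**Figure D3:**
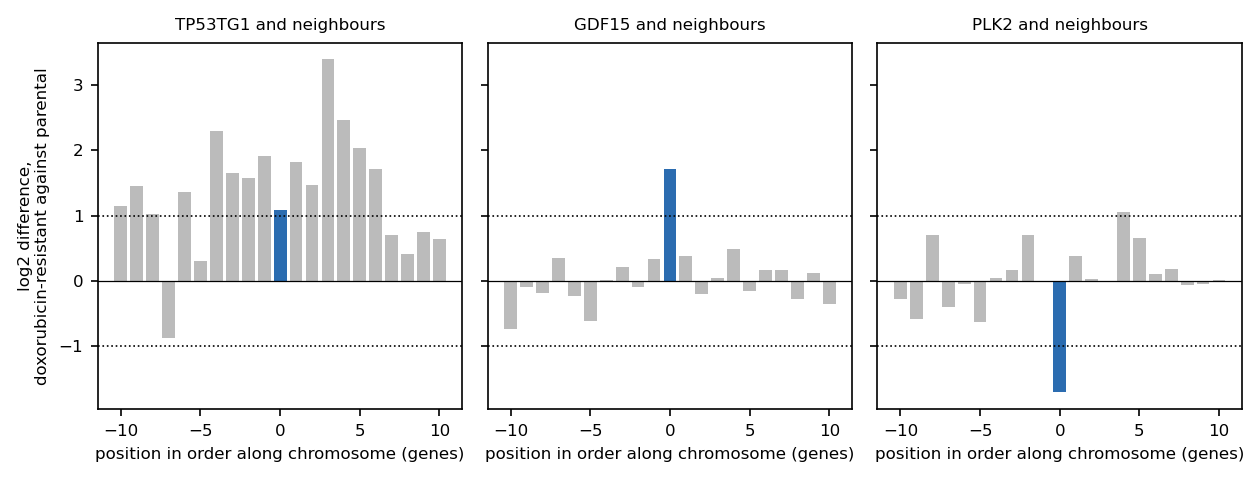
Log2 difference in signal between doxorubicin-resistant and parental cells (y axis) for TP53TG1, GDF15 and PLK2 (blue) and the 10 nearest compared genes on either side in order along the chromosome (grey); dotted lines mark 2-fold. The neighbours of TP53TG1 have a median of 1.46, while those of GDF15 and PLK2 have medians of -0.04 and 0.02.

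Among genes of cell cycle arrest and growth control, p21 and PLK2 went opposite ways in doxorubicin-resistant cells. CDKN1A, which encodes the cyclin-dependent kinase inhibitor p21 and is the best known arrest gene downstream of p53, was at 391 in cisplatin-resistant, 908 in doxorubicin-resistant and 512 in parental cells. The doxorubicin-resistant array was high and the cisplatin-resistant array low, with log2 differences from parental of 0.83 and -0.39, neither at 2-fold. Doxorubicin-resistant cells were 2.32-fold above cisplatin-resistant cells. CDKN1A had 1 probe set, so no second one could be compared, and its neighbours on chromosome 6 had a median of 0.04 in the comparison of the sublines.

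PLK2, a polo-like kinase that is induced by p53 and acts on centriole duplication, had a signal of 1184 in cisplatin-resistant, 394 in doxorubicin-resistant and 1292 in parental cells. The doxorubicin-resistant array alone was low, 3.28-fold under parental and 3.01-fold under cisplatin-resistant cells. It ranked 79th of 12599 genes by the size of a lower difference between doxorubicin-resistant and parental cells. PLK2 also had 1 probe set, and its neighbours on chromosome 5 had a median log2 difference of 0.02. Its relative PLK3 was near level by its representative probe set, at 184, 169 and 161 in the cisplatin-resistant, doxorubicin-resistant and parental arrays. A dimmer PLK3 probe set was at 156, 137 and 76.5, with log2 bounds against parental of 1.02 in cisplatin-resistant and 0.84 in doxorubicin-resistant cells, so its probe sets differed in size.

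GADD45A, a stress sensor that binds cell cycle kinases and repair proteins, was at 2374 in cisplatin-resistant, 3129 in doxorubicin-resistant and 1670 in parental cells. Both sublines were above parental, with log2 differences of 0.51 and 0.91. Its relative GADD45B was at 810, 657 and 670, with 0.27 and -0.03. BTG1, an antiproliferative cofactor of mRNA deadenylation, had log2 differences of 0.01 in cisplatin-resistant and 0.42 in doxorubicin-resistant cells, and the atypical cyclin CCNG2 had -0.15 and 0.23. The zinc finger gene ZNF79 was at 233 in cisplatin-resistant, 120 in doxorubicin-resistant and 196 in parental cells, 1.95-fold lower in doxorubicin-resistant than in cisplatin-resistant cells. Of the 8 genes of this role compared, 1 passed 2-fold in doxorubicin-resistant cells against parental (PLK2), against 5.75% of all genes, and the group median was 0.15.

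**Figure D4:**
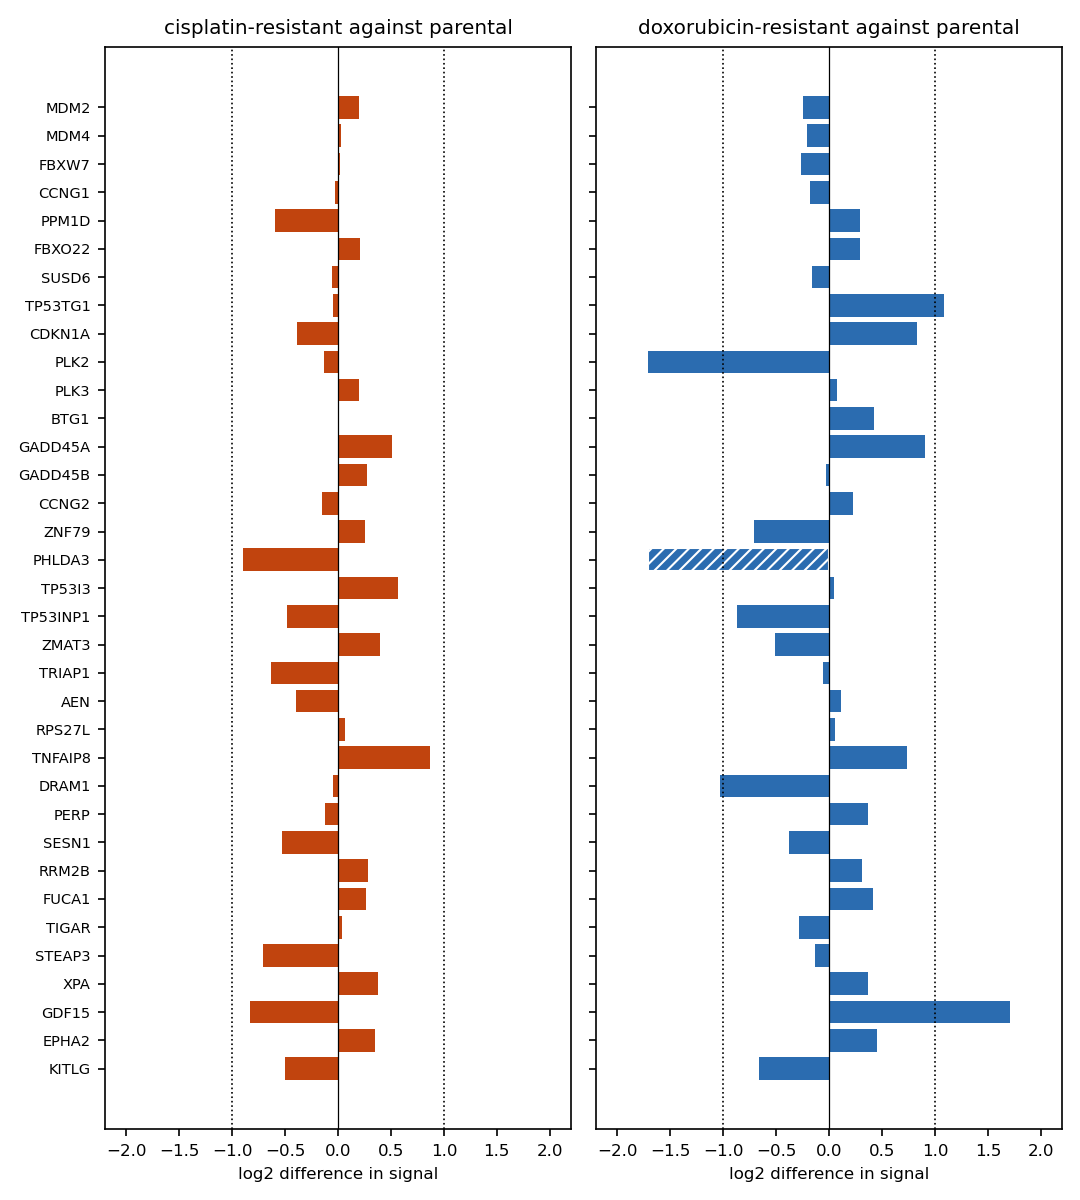
Log2 difference in signal of the 35 compared p53 targets between cisplatin-resistant and parental cells (left) and between doxorubicin-resistant and parental cells (right), 1 array per line; dotted lines mark 2-fold and hatching marks a bound. No bar reaches 2-fold on the left, and GDF15, TP53TG1, PLK2, PHLDA3 and DRAM1 do on the right.

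The genes of cell death and its modulation held 2 of the 3 lower members, PHLDA3 and DRAM1. These were 2 of the 10 genes of this role compared in doxorubicin-resistant against parental cells, where 2.75% of all genes were 2-fold lower. PHLDA3 is a bound and DRAM1 lay just past the threshold, so the count is not read as a group result. PHLDA3, a small pleckstrin homology protein that competes with AKT for the membrane and so restrains survival signalling, was at 135 in cisplatin-resistant, 64.2 in doxorubicin-resistant and 252 in parental cells. Parental cells were highest and doxorubicin-resistant cells lay under the floor, at least 3.27-fold below parental, while cisplatin-resistant cells were 1.86-fold below. By the median over its probe sets the log2 difference of doxorubicin-resistant cells was -0.98, short of 2-fold, and with the floor at the 75th percentile of all values PHLDA3 had no value. The other PHLDA3 probe set was at 26.4, 11.9 and 91.5, above the floor in parental cells only, and gave a log2 bound of -0.25 in each subline. Neighbouring genes on chromosome 1 had a median of -0.44 in doxorubicin-resistant against parental cells, and with it subtracted PHLDA3 stood at -1.27.

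DRAM1, a lysosomal membrane protein through which p53 promotes autophagy, was at 702 in cisplatin-resistant, 357 in doxorubicin-resistant and 727 in parental cells. Only the doxorubicin-resistant array was low, 2.04-fold below parental, just past the threshold and with 1 probe set. With a pseudocount of 16 in place of the floor it was just short of 2-fold. TP53INP1, a stress-induced protein that promotes p53-dependent death and autophagy, followed the same order as PHLDA3, with 1091, 830 and 1517 in the cisplatin-resistant, doxorubicin-resistant and parental arrays. Its log2 differences from parental were -0.48 and -0.87.

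ZMAT3, an RNA-binding zinc finger protein, was at 778 in cisplatin-resistant, 413.5 in doxorubicin-resistant and 590 in parental cells. All 5 of its probe sets were lower in doxorubicin-resistant than in parental cells (-0.51 to -0.27) and lower than in cisplatin-resistant cells (-1.29 to -0.12). Against parental, 4 of the 5 were higher in cisplatin-resistant cells, with values up to 1.02. TNFAIP8, an inhibitor of caspase-mediated death, was at 596, 545 and 325.5 in the cisplatin-resistant, doxorubicin-resistant and parental arrays. It was above parental in both sublines, 1.83-fold and 1.67-fold, and its second measured probe set had log2 differences of 0.42 and 0.22.

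The remaining death genes lay within 1.5-fold of parental in doxorubicin-resistant cells, and in cisplatin-resistant cells TRIAP1 was past it. TP53I3, a quinone oxidoreductase tied to oxidative stress, had log2 differences of 0.57 in cisplatin-resistant and 0.05 in doxorubicin-resistant cells. TRIAP1, a mitochondrial inhibitor of apoptosis, had -0.63 and -0.06, and the nuclease AEN -0.40 and 0.11. PERP, a desmosomal membrane protein that also promotes apoptosis, had -0.12 and 0.37, and RPS27L, a ribosomal protein relative, 0.07 and 0.06. SPATA18, a mitochondrial quality control gene, was under the floor on all 3 arrays, at 22.9, 23.4 and 10.7 in the cisplatin-resistant, doxorubicin-resistant and parental arrays, and was not compared. For the 10 genes of this role compared, the median was -0.08 in cisplatin-resistant and -0.01 in doxorubicin-resistant cells.

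**Figure D5:**
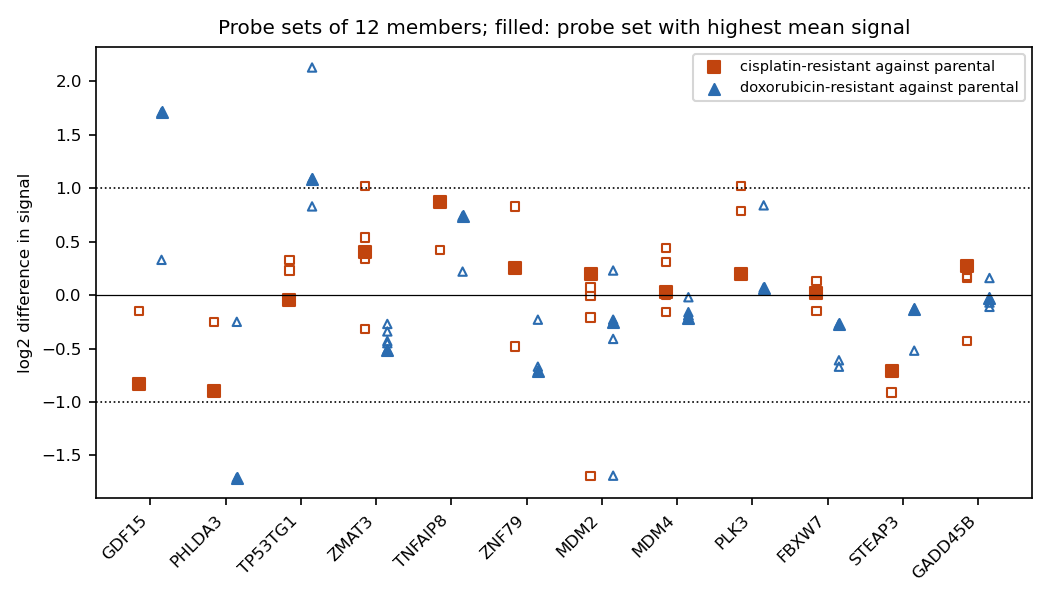
Log2 difference from parental in signal (y axis) for each probe set above the floor on at least 1 of the arrays compared, for 12 members with several probe sets (x axis); filled symbols are the representative probe sets, open ones the others, and dotted lines mark 2-fold. The TP53TG1 probe sets agree in sign in doxorubicin-resistant cells, whereas those of MDM2 and ZNF79 include opposite signs in cisplatin-resistant cells.

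Of 6 metabolic, redox and repair targets 0 passed 2-fold in either subline, which at 5.40% and 5.75% of all genes does not set them apart. SESN1, a sestrin that restrains mTOR signalling, was at 165 in cisplatin-resistant, 183 in doxorubicin-resistant and 238 in parental cells, low in both sublines. The ferrireductase STEAP3 was at 1037, 1555 and 1700, with log2 differences of -0.71 and -0.13, and its other probe set gave -0.91 and -0.52. RRM2B, the p53-inducible subunit of ribonucleotide reductase, had 0.28 and 0.31. The lysosomal fucosidase FUCA1 had 0.26 and 0.41 and the nucleotide excision repair protein XPA 0.38 and 0.37, both above parental in each subline. TIGAR, a phosphatase that lowers glycolytic flux, had 0.04 and -0.28. The 6 genes had a median of 0.15 in cisplatin-resistant and 0.09 in doxorubicin-resistant cells.

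GDF15 stood furthest apart of all members. It encodes a secreted stress cytokine of the TGF-beta superfamily, which p53 induces and which the ATF4 branch of the stress response is also known to induce. Its signal was 1501 in cisplatin-resistant, 8742 in doxorubicin-resistant and 2667 in parental cells. The doxorubicin-resistant array was high and the cisplatin-resistant array low, 3.28-fold above and 1.78-fold below parental. Doxorubicin-resistant cells were 5.83-fold above cisplatin-resistant cells, the 17th highest of 12593 genes in that comparison. A second probe set, at 34.0, 107 and 85.3, had the same signs but smaller log2 differences from parental, -0.15 (a bound) in cisplatin-resistant and 0.33 in doxorubicin-resistant cells. The third was under the floor on all arrays. By the median over the measured probe sets, doxorubicin-resistant cells had log2 differences of 1.02 from parental and 1.51 from cisplatin-resistant cells. The bright probe set carries the suffix that Affymetrix gives to probes that may match other transcripts, and without such probe sets GDF15 had no value above the floor. Neighbouring genes on chromosome 19 had a median of -0.04 in doxorubicin-resistant and 0.09 in cisplatin-resistant cells.

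The other secreted factor and the receptor were closer to parental. KITLG, the ligand of the KIT receptor, was at 2527 in cisplatin-resistant, 2258 in doxorubicin-resistant and 3577 in parental cells, lower in both sublines by 1.42-fold and 1.58-fold. EPHA2, a receptor tyrosine kinase for ephrins, was at 1350.5, 1442 and 1058, higher in both by 1.28-fold and 1.36-fold. The antiviral ubiquitin ligase TRIM22 was at 3.1, 4.5 and 11.3, under the floor on all arrays, and was not compared.

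The probe sets of the members agreed only in part. The 37 genes had 97 probe sets, of which 77 were above the floor on at least 1 array and 63 on all 3. In cisplatin-resistant against parental cells 19 members had several measured probe sets, and all of them had 1 sign for 9 members. In doxorubicin-resistant against parental cells this was so for 14 of 19. A further 16 members had 1 measured probe set in each of these comparisons, PLK2, DRAM1 and CDKN1A among them, so their values rest on a single probe set. Near the threshold, in doxorubicin-resistant against parental cells, DRAM1 at -1.03 and TP53TG1 at 1.09 lay just past 2-fold, and GADD45A at 0.91, TP53INP1 at -0.87 and CDKN1A at 0.83 just under it. In cisplatin-resistant against parental cells the members closest to 2-fold were PHLDA3 at -0.90, TNFAIP8 at 0.87 and GDF15 at -0.83. Between the sublines they were DRAM1 at -0.98, ZNF79 at -0.96 and ZMAT3 at -0.91.

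Of 17 regulators upstream of p53 compared, 0 were past 2-fold from parental in either subline, where 5.40% and 5.75% of all genes were, and their medians were 0.00 in cisplatin-resistant and 0.03 in doxorubicin-resistant cells. Between doxorubicin-resistant and cisplatin-resistant cells 0 passed 2-fold and 3 passed 1.5-fold, namely the checkpoint kinase CHEK1 (0.75), the deacetylase SIRT1 (0.71) and the damage kinase ATM (-0.63). Of the proliferation genes that p21 lowers through the DREAM repressor complex, 23 of 23 were within 2-fold of parental in each subline. Only 5.40% and 5.75% of all genes were past 2-fold, so this count does not set the 23 apart. The medians of the 23 were 0.00 and -0.05. CDC25A, the phosphatase that activates cell cycle kinases, was the lowest of them, at -0.85 in cisplatin-resistant and -0.75 in doxorubicin-resistant cells.

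A further list, mostly of p53 targets that act in death and repair, went both ways. Of 18 compared, 1 was 2-fold higher and 1 lower in cisplatin-resistant against parental cells, and 2 were higher and 1 lower in doxorubicin-resistant against parental cells. These are 11.1% and 16.7% of the list, against 5.40% and 5.75% of all genes. Between doxorubicin-resistant and cisplatin-resistant cells 2 were higher and 2 lower, 22.2% against 6.37%. APTR, a non-coding RNA and not a death or repair protein, was 1 of the 2 higher genes in both comparisons of doxorubicin-resistant cells. The death receptor FAS was at 253 in cisplatin-resistant, 194 in doxorubicin-resistant and 79.7 in parental cells, 3.18-fold and 2.43-fold above a parental signal close to the floor. Those are log2 differences of 1.67 and 1.28, while its other measured probe sets had medians of 0.50 and 0.43. PMAIP1, the BH3-only death protein NOXA, was at 978, 2978 and 2711, lower in cisplatin-resistant cells only, where its neighbours on chromosome 18 had a median of -0.89. The excision repair sensor XPC was at 1040, 444 and 942, 2.12-fold lower in doxorubicin-resistant than in parental cells. Its neighbours on chromosome 3 had a median of -0.28, with 15 of 20 below 0 and 4 past 2-fold lower. With that median subtracted XPC stood at -0.80, short of 2-fold. The adjacent genes TMEM43 and LSM3 had -1.06 and -1.15, beside -1.08 for XPC itself. Past LSM3, values ran from -0.31 to 0.50, so the median covers 2 unlike stretches. APTR, a non-coding RNA on chromosome 7 that acts on the p21 promoter, was at 765.5, 2531 and 793, among neighbours with a median of 0.97 in doxorubicin-resistant cells, and with it subtracted stood at 0.70. Its other probe set had a log2 difference of 0.79 there, under the neighbours' median. The damage-binding protein DDB2 was at 807, 811 and 506, 1.59-fold and 1.60-fold above parental, and the pore-forming death protein BAX at 2129, 3046 and 2765.

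Other targets outside the member list passed 2-fold in 4.0% of cases in cisplatin-resistant and 12.5% in doxorubicin-resistant cells, against 5.40% and 5.75% of all genes. Between doxorubicin-resistant and cisplatin-resistant cells 4 of 25 were higher and 2 lower, 24.0% against 6.37%. Of 25 compared in cisplatin-resistant cells 1 was higher and 0 were lower. The higher gene was the carnitine palmitoyltransferase family member CPT1C, at 225 in cisplatin-resistant, 61.9 in doxorubicin-resistant and 81.5 in parental cells. Its parental signal was close to the floor, its doxorubicin-resistant signal under it, and it had 1 measured probe set. Of 24 compared in doxorubicin-resistant cells 3 were higher and 0 lower. The growth factor TGFA was at 151, 469 and 161, 2.92-fold above parental in doxorubicin-resistant cells, and the stress transcription factor ATF3 at 532.5, 1379 and 475. Their other measured probe sets had smaller log2 differences from parental in doxorubicin-resistant cells. These were 0.49 for TGFA and 0.46 for ATF3, against 1.54 for the representative probe set of each. The 0.49 is a bound, since that TGFA probe set was not above the floor in parental cells, and the difference may be larger. The matrix proteoglycan VCAN was at 142, 1098 and 236. SESN2, a sestrin induced by p53 and by ATF4, was at 310, 1004 and 520. SESN2 was lowest in cisplatin-resistant and highest in doxorubicin-resistant cells, with log2 differences from parental of -0.74 and 0.95. Members with that order were GDF15, CDKN1A, TP53TG1, PPM1D, AEN, PERP and CCNG2. BAX, PMAIP1 and VCAN were among the other genes with it, so the order is not particular to SESN2.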

How the data were processed

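The authors deposited 1 linear intensity (signal) per probe set and array. The submitters' processing notes name MAS5 without a version. Each array's mean without its lowest and highest 2% of values was 500.1, as found from the values, the form that global scaling gives. MAS5 subtracts mismatch signal, which makes low values noisy. All 3 columns were used. Of 54675 probe sets, 41097 had 1 gene symbol, updated through Entrez identifiers in a RefSeq table of build GRCh38.p14 (41043 matched), while the 1801 with several were left unnamed. Analyses used Python 3.11.15, numpy 2.4.6 and pandas 2.3.3, and the steps were tested on simulated arrays. Settings were a floor of 76.9, 2-fold calls, and no p-values, since each line had 1 array. Named members were GDF15, PLK2, PHLDA3, MDM2 and CDKN1A, those past 2-fold and the 3 nearest under it in each comparison; the other members were described by role. BAX, DDB2, SESN2, CDC25A, CHEK1, SIRT1 and ATM fall outside that rule and were chosen after their values were seen. Genes of the other lists were named at 2-fold from parental. Members and lists were chosen with earlier results of these data known. Alternatives were other floors, a pseudocount, other choices of probe set, quantile normalization, median centring and subtraction of neighbouring genes, and the closing section gives their effect.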

Additional observations from a re-analysis of the deposited data

Results flagged for a closer look

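GDF15 went opposite ways in the sublines. Its log2 difference from parental was 1.71 in doxorubicin-resistant and -0.83 in cisplatin-resistant cells, so the sublines differed by 2.54, and by 1.51 with the median over its probe sets. The cisplatin-resistant value is under the 2-fold call, and the bright values rest on 1 probe set that may match other transcripts. With 1 array per line the difference was not tested, and both values share the parental array.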

How the results depend on the processing

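Of 10 alternatives, 2 were chosen after seeing the data (the probe set with the highest mean log2 signal, and the members without TP53TG1). The number of members past 2-fold in cisplatin-resistant against parental cells was 0 in all 10. In doxorubicin-resistant against parental cells it was 5, and 3 with the floor at the 75th percentile of all values, where PHLDA3 lay too low for a value and DRAM1 stood at -0.73. The other alternatives gave 4 or 5. Between the sublines it was 4, and 3 to 5 under the alternatives. Of 345 values of 12 named members, 339 kept their side of 2-fold. Part of this count was fixed in advance, so it is not a measure of robustness. Leaving out TP53TG1 cannot move another member, and other choices of probe set cannot move a member with 1 probe set. Values lost under an alternative are not counted. With the median of neighbouring genes subtracted TP53TG1 reversed, to -0.38 in doxorubicin-resistant against parental and -0.12 in doxorubicin-resistant against cisplatin-resistant cells. By the median over its probe sets PHLDA3 stood at -0.98 in doxorubicin-resistant against parental cells, and GDF15 at 1.02. GDF15 had no value without cross-matching probe sets. The share of all genes past 2-fold, 5.40%, 5.75% and 6.37% in the 3 comparisons, was 11.8%, 12.2% and 12.8% with the floor at the 25th percentile and 2.76%, 3.13% and 3.82% with it at the 75th. No paired analysis was possible because each line had 1 array, and for the same reason no array could be left out. Signal near the floor limits what can be said of PHLDA3, PLK3, SPATA18 and TRIM22, and outside the members of FAS and CPT1C.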
